A study of Mus musculus with 32 samples.

Results

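The 92 genes described here encode subunits of the mitochondrial machinery of oxidative phosphorylation, together with factors that assemble complex I. They were taken by symbol from a table of 16741 mouse genes: every symbol beginning with Nduf, Uqcr, Atp5, Cox4, Cox5, Cox6, Cox7 or Cox8, plus Sdha, Sdhb, Sdhc, Sdhd, Cyc1 and Cycs. Symbols of pseudogenes (4) were left out, and 13 genes of the mitochondrial genome, whose symbols begin with mt-, are described apart. Of the 92, 39 are subunits of complex I or count with them by name, 8 are complex I assembly factors (the Ndufaf genes), 4 belong to complex II, 9 to complex III and 14 to complex IV. Another 17 belong to complex V, and Cycs encodes cytochrome c. The rule uses symbols and no measured value.

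Donor T cells were sorted from spleen and lymph nodes in a mouse model of graft-versus-host disease, an attack of transplanted C57Bl6 cells on a Balb/c recipient that differs at the major histocompatibility locus. The 31 RNA libraries fall into 10 groups. Before transplantation (day 0) there were 2 libraries each of conventional CD4 cells, conventional CD8 cells and regulatory T cells (Treg). After transplantation there were 4 CD4 and 4 CD8 libraries from untreated allogeneic recipients with the disease, 4 and 4 from allogeneic hosts given Treg as treatment, and 3 and 3 from untreated syngeneic controls, where donor and host match. The last 3 libraries hold Treg from Treg-treated recipients. Sample titles place these cells at day 6 and the study's design text at day 8, so they are called cells after transplantation. All donor cells are of the one donor strain, and the labels give no engineered allele. Libraries carry the prefix JL019 or JL027, which the deposited receptor tables use as the experiment's name, and 22 of them also carry a number. Libraries that share the prefix, treatment and number are taken here as one recipient, which the labels do not state. The labels do not say that libraries of a group came from separate donors, so p-values measure only the spread between these libraries.

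Oxidative phosphorylation passes electrons from NADH (complex I) or succinate (complex II) through complex III and cytochrome c to oxygen at complex IV, and complex V uses the resulting proton gradient to make ATP. Most subunits are encoded in the nucleus and imported, while a small core is encoded by the mitochondrial genome. Resting T cells rely largely on this pathway, and activated T cells enlarge their mitochondria while raising glycolysis.

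Many nuclear genes of the pathway share promoter motifs, such as the palindromic site of nuclear respiratory factor 1 (NRF1), here searched on both strands as the letters GCGCA, any 1 base, then GCGC. RefSeq promoter windows of 300 bases (250 before and 50 after the start, build GRCm38.p6) were matched for 75 of the 92 genes. The NRF1 letters occurred in 18 of the 75 (24.0%) and in 9.23% of all 11730 promoter windows of that length. YY1 letters, AAGATGGC, occurred in 13.3% against 4.19%, ETS letters, CCGGAAG, in 24.0% against 16.2%, and Sp1 letters, GGGCGG, in 46.7% against 58.5%. The motifs can overlap each other, and a match is a run of letters and not a measured binding site. The 160 bases before the start are shown for 4 members whose values differ between groups in unlike ways below, with the NRF1 letters in capitals and read 5′ to 3′ in the gene's direction. Cox6a1 encodes the common form of a complex IV subunit (chr5:115348959-115349118, minus strand), Ndufaf4 a complex I assembly factor (chr4:24897923-24898082, plus strand), Atp5k a complex V subunit (chr5:108434400-108434559, minus strand) and Sdha the flavoprotein of complex II (chr13:74350241-74350400, minus strand).
Cox6a1: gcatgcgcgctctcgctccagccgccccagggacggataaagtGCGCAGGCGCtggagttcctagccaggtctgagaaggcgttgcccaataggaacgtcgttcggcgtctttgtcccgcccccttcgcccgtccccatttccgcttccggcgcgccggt
Ndufaf4: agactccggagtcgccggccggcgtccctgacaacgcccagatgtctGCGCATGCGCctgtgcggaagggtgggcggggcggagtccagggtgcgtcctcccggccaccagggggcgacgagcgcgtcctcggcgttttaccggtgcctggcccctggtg
Atp5k: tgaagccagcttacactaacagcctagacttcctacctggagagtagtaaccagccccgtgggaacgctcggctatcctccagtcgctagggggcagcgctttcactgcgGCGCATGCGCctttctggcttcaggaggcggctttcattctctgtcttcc
Sdha: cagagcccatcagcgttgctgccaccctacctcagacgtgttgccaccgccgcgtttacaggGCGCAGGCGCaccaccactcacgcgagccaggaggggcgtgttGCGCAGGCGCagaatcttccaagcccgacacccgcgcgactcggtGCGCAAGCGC
Sdha, whose level was lower in 3 of 4 Treg-treated CD4 libraries than in any of the untreated ones, held 3 matches in this stretch, and Cox6a1, which rose, held 1. In the full window of 300 bases Sdha held 3 and Cox6a1 held 2, as the printed stretch cuts through a match of Cox6a1. In the comparison of Treg-treated with untreated CD4 cells, 15 of the 18 members with a match rose, with a median log2 change of 0.93, where 10.7% of all genes rose (limma, described below). Of the 57 members searched without a match, 42 rose, with a median of 0.90.

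The values are read counts that the authors scaled with DESeq2, so the sequencing depth behind them is unknown, and mean values per library ran from 1227 to 2385. Cd4 and Cd8a followed the labels in 30 libraries, and the exception, CD4 syngeneic JL019-2, had 1659 normalised counts of Cd4, 1956 of Cd8a and 825480 of the myeloid gene Lyz2. Member calls that use that library are given with and without it where they differ. The 2 libraries labelled Treg at day 0 had 198 and 442 of Foxp3, the defining Treg factor, below the 1145 and 978 of CD4 cells at day 0. The Treg genes Il2ra (11229 and 13064 against 1981 and 1923) and Ikzf2 (19287 and 14182 against 1619 and 1770) were higher in the libraries labelled Treg. Libraries also differed in a trend with gene length, measured here as the slope of each library's log2 deviation over all 15873 genes with a known genomic span, per doubling of the span. The members are short, with a median genomic span of 7106.5 bases against 20033 for all genes, and 79 of 92 lie under the median of all. A falling trend means that short genes read higher on average in that library than long ones. How much of the members' level goes with it was not tested. Results are given beside this trend and again after a smooth curve on span was removed from each library. Span includes introns, and transcript length was not used here.

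Nearly all members were detected in every library: zeros made up 3 of 2852 values, all of them in Cox6a2, and 88 of 92 members averaged at least 100 normalised counts. The members moved largely as a block. Over the 31 libraries, 81 of 92 members had a correlation above 0.8 with the median member, and the median of these correlations was 0.963. Sdha (-0.476) and Ndufs1 (-0.134) were the 2 members with a negative one. These correlations describe libraries that share a scaling and a length trend, and carry no test. Together the 92 genes took 1.21% to 1.62% of the normalised counts in the 6 libraries from day 0, 1.43% to 1.61% in Treg after transplantation, and 1.60% to 2.00% in untreated allogeneic CD4 cells. In Treg-treated CD4 cells the share was 2.82%, 2.89%, 1.97% and 2.69%, and in Treg-treated CD8 cells 1.95%, 3.49%, 2.19% and 2.59%.

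**Figure D1:**
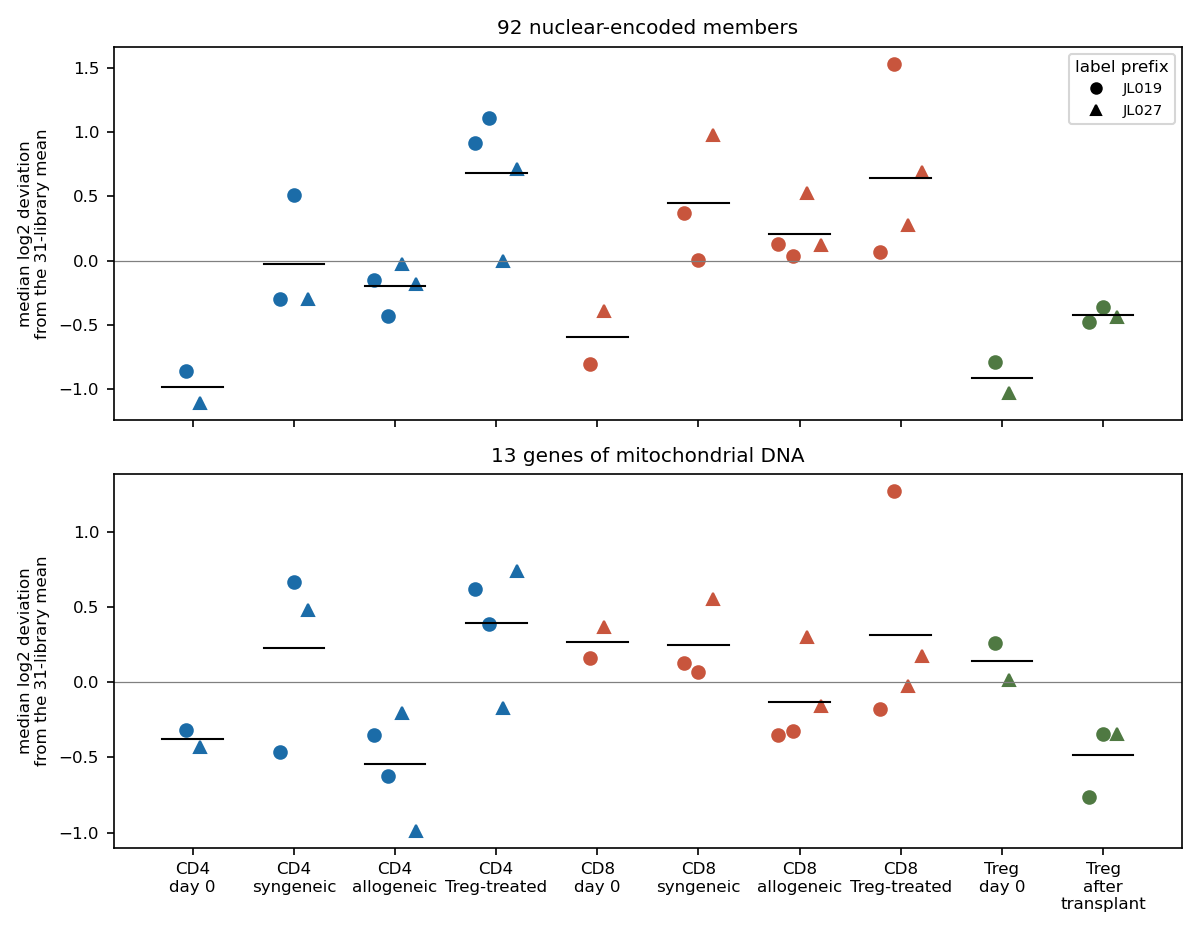
Median over the 92 members of the log2 deviation from each gene's mean over all libraries, one point per library, by group (upper panel), and the same for the 13 mitochondrially encoded genes (lower panel); circles are JL019, triangles JL027 and horizontal bars group means. For the 92 members, day 0 libraries lie between -1.11 and -0.39, with the highest of them above 2 of the 3 libraries of Treg after transplantation, and the Treg-treated groups spread widely, from 0.00 to 1.11 in CD4 cells and from 0.07 to 1.54 in CD8 cells.

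By group mean, 54 of the 92 members were lowest in CD4 cells at day 0, 26 in Treg at day 0 and 3 in CD8 cells at day 0. The highest group mean lay in Treg-treated CD8 cells for 42 members, in Treg-treated CD4 cells for 26 and in syngeneic CD8 cells for 19. Cytochrome c (Cycs), the mobile carrier between complexes III and IV, ran from 1929 ± 205 (SD, n = 2) normalised counts in CD4 cells at day 0 to 9069 ± 4209 (SD, n = 4) in Treg-treated CD8 cells. Cox4i1, a complex IV subunit often used as a mitochondrial marker, ran from 6697 ± 54.7 (SD, n = 2) in Treg at day 0 to 21719 ± 7539 (SD, n = 4) in Treg-treated CD4 cells. Other members had another order. Atp5b, the catalytic beta subunit of complex V, was lowest in Treg at day 0 (24578 ± 2870, SD, n = 2) and highest in syngeneic CD8 cells (73687 ± 15728, SD, n = 3). Sdha was highest in CD8 cells at day 0 (12322 ± 1550, SD, n = 2) and lowest in Treg-treated CD4 cells (6513 ± 1825, SD, n = 4).

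**Figure D2:**
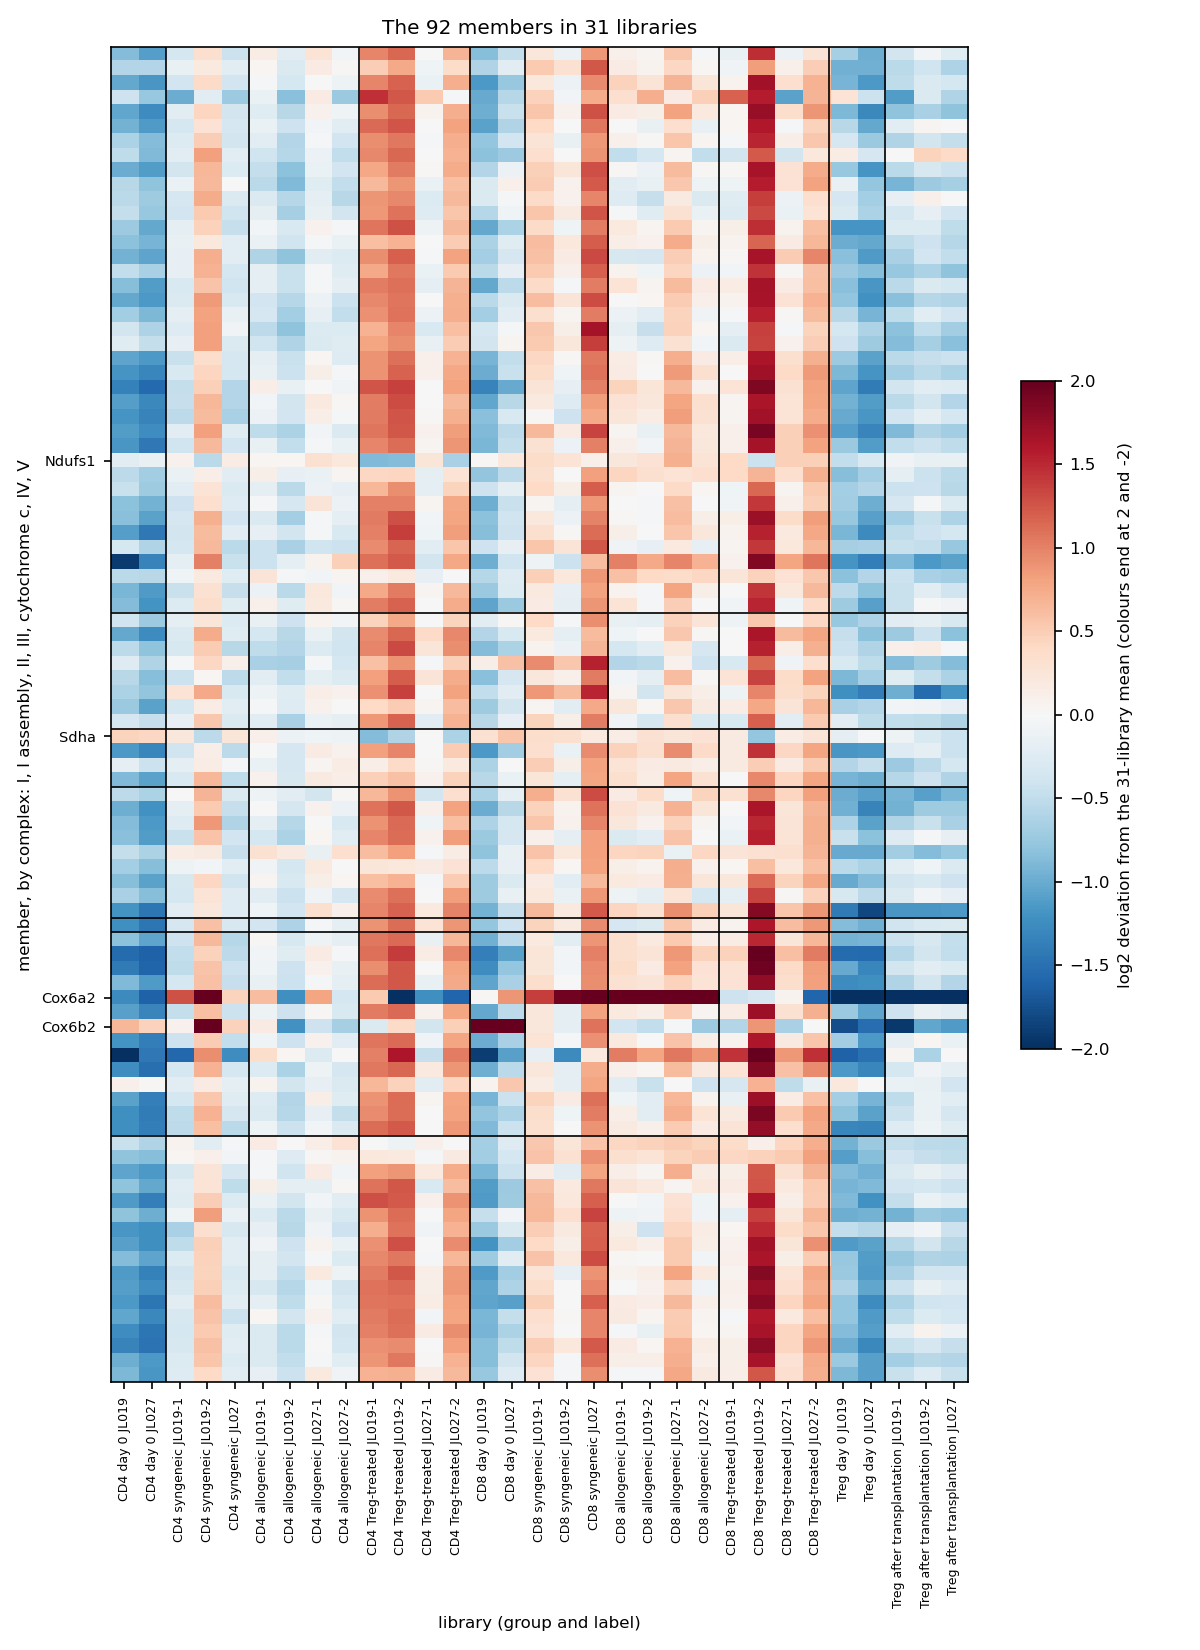
Log2 deviation of each of the 92 members (rows, by complex) from its mean over the 31 libraries (columns, by group), red above and blue below, with colours ending at 2 and -2; 4 rows are named. Columns differ as blocks across rows, with the exceptions of Sdha and Ndufs1, and the isoform genes Cox6a2 and Cox6b2 show patterns of their own.

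The first comparison asks how Treg treatment altered the conventional cells of recipients with the disease. In CD4 cells, 65 of the 92 members rose with Treg treatment and 1 fell (limma, Benjamini-Hochberg adjusted over all 16741 genes, threshold 0.05), against 10.7% of all genes called higher and 11.5% called lower. The median log2 change of the members was 0.90 and that of all genes 0.00. The 2 groups did not overlap, with the treated libraries higher, for 35 members, where 12% of all genes separated that way. Calls came from every complex but complex II: 28 of 39 complex I genes, 6 of 8 assembly factors, 5 of 9 complex III genes, 10 of 14 complex IV genes, 15 of 17 complex V genes and Cycs. Bulk libraries cannot tell fewer cells of a type from less RNA per cell.

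Ndufaf3, an assembly factor of complex I, had the lowest p of the members. Its level was 759, 722, 894 and 825 normalised counts in untreated recipients and 2141, 2714, 1287 and 2059 in treated ones (JL019-1, JL019-2, JL027-1 and JL027-2, as in all lists of 4 below). The groups did not overlap, although the treated library JL027-1 lay close to the untreated ones. The log2 change was 1.31 (SE 0.28, limma adjusted p = 0.00739). The other assembly factors called by rule, Ndufaf2 (1.22), Ndufaf5 (1.05) and Ndufaf4 (0.90), moved by similar amounts. Among complex I subunits Ndufab1, the mitochondrial acyl carrier protein, rose by 1.20, Ndufc1 by 1.18 and Ndufs7, which carries an iron-sulfur cluster, by 1.09. Ndufa4, named as a complex I gene but now placed in complex IV, rose by 1.10.

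Cycs read 3726, 3160, 4775 and 4263 in untreated and 9092, 10489, 5876 and 8917 in treated CD4 cells. No treated library lay as low as an untreated one. The change was 1.10 (SE 0.27, limma adjusted p = 0.0129). Complex III members that rose included Uqcrb (1.05), Uqcrh (0.99) and Uqcr10 (0.90), small subunits around its core. In complex IV, Cox7a2 rose by 1.16, Cox7c by 1.09, Cox8a by 1.02, Cox6a1 by 0.95, Cox5a by 0.94, Cox5b by 0.87 and Cox4i1 by 0.82. Cox6a1 shows the pattern of most members: 10177, 8354, 10957 and 9874 untreated against 24566, 26866, 10159 and 19053 treated. Here 3 treated libraries lay far above all untreated ones and JL027-1 lay among them. In complex V, Atp5j2 (1.13), Atp5md (1.11) and Atp5e (1.07), all small subunits, rose.

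Several members did not follow this pattern. Ndufs1, the largest subunit of complex I and an entry point of its iron-sulfur chain, was the one member that fell (-0.69, SE 0.22, limma adjusted p = 0.0273). It read 3966, 3957, 4767 and 4446 in untreated and 2080, 2119, 4539 and 2464 in treated CD4 cells. The 3 treated libraries that were high for Cox6a1 were low for Ndufs1, and JL027-1 stayed among the untreated ones. Sdha read 9817, 8441, 8622 and 8490 untreated and 4973, 6041, 9158 and 5881 treated, the same arrangement, with a change that missed the threshold (-0.48, limma adjusted p = 0.0899). Without a call were also Ndufv1, the NADH-binding subunit (-0.03), the complex III core proteins Uqcrc1 (0.22) and Uqcrc2 (0.28), and the alpha and beta subunits of complex V, Atp5a1 (-0.15) and Atp5b (0.19). Other core subunits did rise, such as Ndufs7 above. Of the remaining complex II and III genes named by rule, Sdhb (0.60), Sdhc (0.25), Sdhd (0.39), Uqcrfs1, the Rieske iron-sulfur protein (0.47), and Cyc1, cytochrome c1 (0.55), had no call either.

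**Figure D3:**
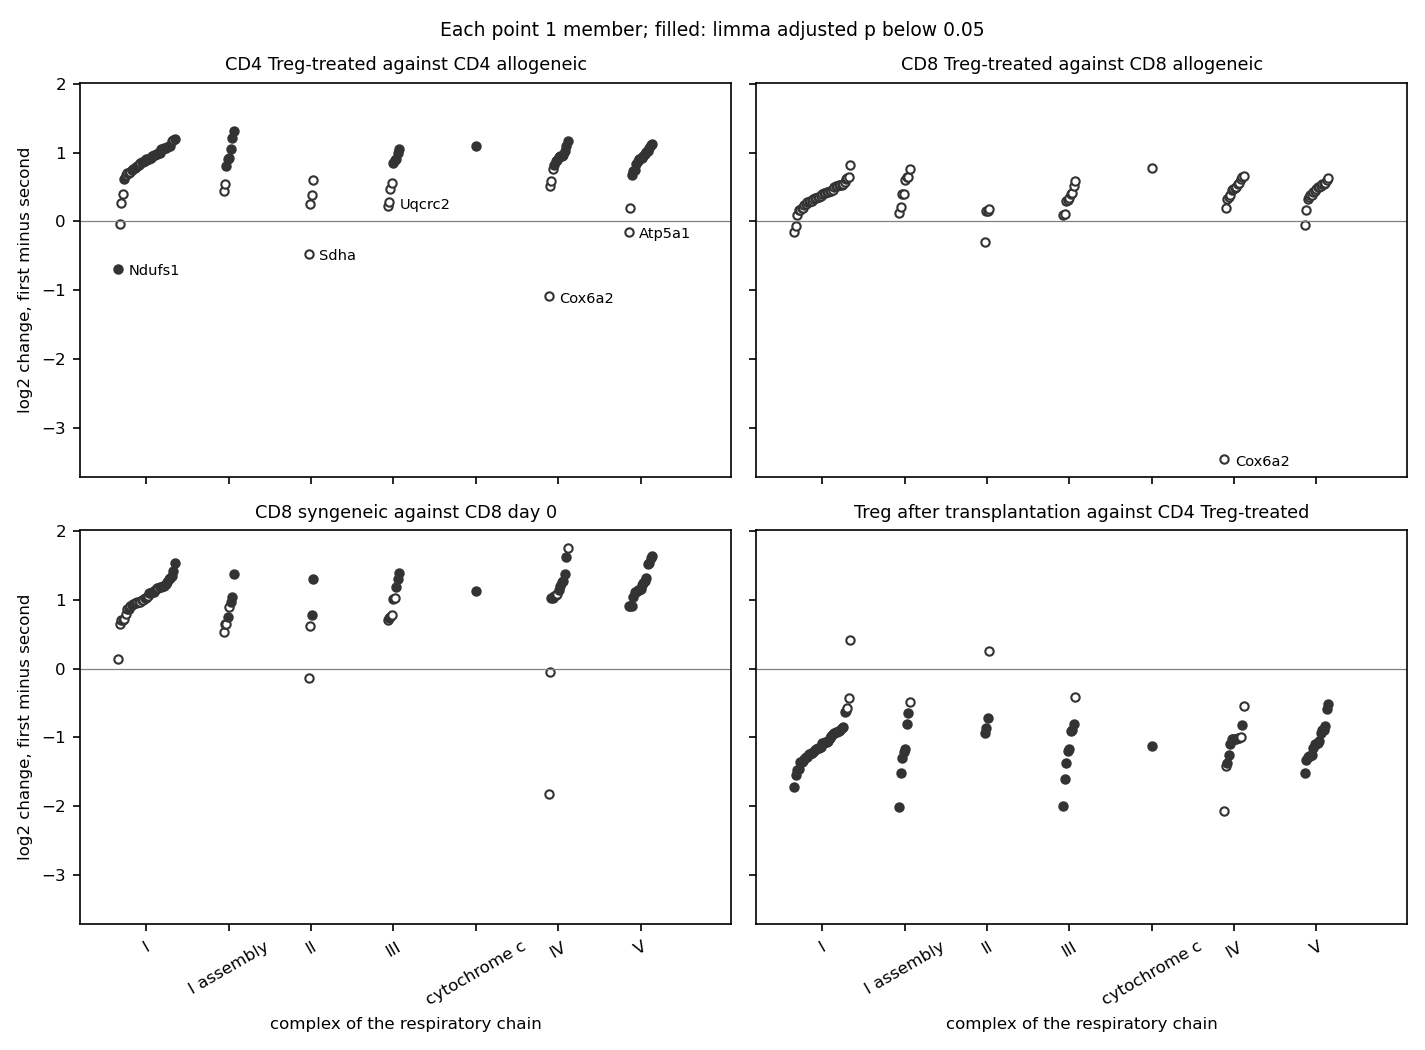
Log2 change of each member by complex, one point per member, for Treg-treated against allogeneic CD4 and CD8 cells, syngeneic CD8 cells against day 0, and Treg after transplantation against Treg-treated CD4 cells; filled points passed the test. In Treg-treated CD4 cells complexes I, III, IV and V have medians between 0.85 and 0.92 and complex II 0.32, in Treg-treated CD8 cells no member passed, and in Treg 82 passed below 0.

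The change in CD4 cells went together with the length trend and with single libraries. The trend was -0.10, -0.12, 0.02 and -0.07 in the treated CD4 libraries and 0.02 to 0.05 in the untreated ones, and the member median deviation was 0.92, 1.11, 0.00 and 0.72 against -0.43 to -0.03. After the smooth curve on span was removed, 46 members rose and 1 fell (9.87% and 10% of all genes), with a member median of 0.66. With each library's trend as a term of the fit, 0 members were called (0.418% of all genes), with a median of -0.07. With curves on span and then on mean level removed from each library, 30 rose (7.94% of all genes) and 3 fell, with a median of 0.55. With all genes split into 4 equal classes by span, from shortest to longest, the median log2 change of all genes was 0.39, 0.05, -0.15 and -0.25. That of the members in the same classes was 0.91, 0.91, 0.62 and 0.99 (41, 38, 11 and 2 members). Without the treated library JL027-1 80 members were called, and without JL019-1, JL019-2 or JL027-2 the number was 6, 2 or 10. It was 24, 10, 58 and 33 without the untreated library JL019-1, JL019-2, JL027-1 or JL027-2, and 0 in each of JL019 and JL027 alone. Counts from fits without a library or on a single prefix, here and below, stand without the share of all genes. They show how far calls depend on single libraries and not how members compare with other genes.

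Myeloid markers also moved with treatment. The summed level of 10 myeloid markers was 92502, 51557, 28433 and 33025 in treated CD4 libraries and 7984 to 14593 in untreated ones; 3 of the 10 rose and 1 fell. The sum was lowest in JL027-1, whose S100a8 level was 12431 against 2225 to 5243 untreated, and Csf1r, a defining macrophage marker, was at most 28.5 in both groups. Cd4 itself read 9108, 8722, 17587 and 9370 in the treated and 16706 to 21480 in the untreated libraries. B-cell markers (7 genes) summed to 14775 to 17949 in treated and 10156 to 14017 in untreated CD4 libraries, also without overlap, with 1 of the 7 called higher. Most of the B-cell sum was the single gene Ighm in every library, so the sum mainly follows that gene, here and below. Erythroid markers (7 genes) overlapped, at 5456 to 62486 and 428 to 10792. The part of these values in the members' change was not tested.

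**Figure D4:**
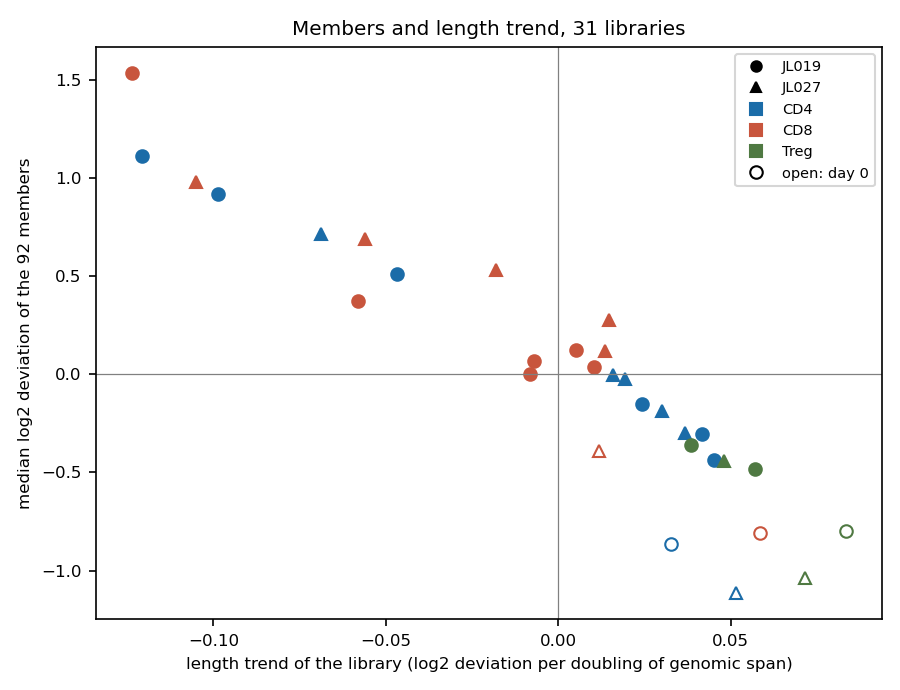
Member median log2 deviation (vertical axis) against the length trend of all genes (horizontal axis, log2 per doubling of genomic span), one point per library, with a colour for each cell type, open symbols for day 0, circles for JL019 and triangles for JL027. Libraries with falling trends, chiefly treated CD4 libraries, CD8 Treg-treated JL019-2 and CD8 syngeneic JL027, lie highest.

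Across the 31 libraries, after group means were taken out of both measures, the member median and the length trend were correlated (Pearson r = -0.961, Spearman rho = -0.947, permutation p = 1e-05 for both, the smallest that 100000 permutations can give; adjusted 1e-05 and 2e-05 over 2 relations). The members are mostly short and are among the genes that set the trend, so a negative relation was partly fixed in advance. The permutations shuffled libraries across groups, although values centred within a group depend on each other. All permutation p-values here can therefore be too small. Without CD4 Treg-treated JL027-1 and CD8 Treg-treated JL019-2, the 2 libraries farthest from the median trend once group means were taken out, r was -0.943. Within the JL019 libraries r was -0.983 (n = 14), and within JL027 -0.968 (n = 8), over groups with at least 2 libraries there. Mitochondrially encoded genes, which have no span and lie outside the length curve, gave r = -0.742 and rho = -0.684 (permutation p = 1e-05 and 5e-05). Their r was -0.611 without those 2 libraries, -0.918 within JL019 and -0.758 within JL027.

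In CD8 cells, Treg treatment gave no member a call (limma), as it gave 0.0657% of all genes one, while 13 members had an unadjusted p under 0.05. The change was positive for 87 of 92 members with a median of 0.41, beside -0.01 for all genes. One treated library, JL019-2, stood far above the rest: Cycs read 3837, 3954, 7138 and 5414 untreated and 5073, 14935, 7417 and 8849 treated (0.77, limma adjusted p = 0.312). The groups overlapped through the untreated JL027-1 and JL027-2. That treated library had a length trend of -0.12, the others of its group -0.06 to 0.01. Myeloid marker sums were 17646, 34235, 14771 and 13599 in treated CD8 libraries, highest in JL019-2, and 8569 to 13061 in untreated ones, without overlap, although 0 of the 10 markers were called; their part was not tested. The difference between the CD8 and CD4 effects was itself tested: 0 members passed in either direction (0.00597% of all genes), none had an unadjusted p under 0.05, and the median difference was -0.46 with 89 of 92 members below 0. The smaller number of calls in CD8 cells is therefore not shown to be a difference between the cell types.

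The next comparisons ask how donor cells changed from their state before transplantation. Against day 0, members rose in every conventional group tested: 39 in allogeneic CD4 cells (14.4% of all genes), 39 in allogeneic CD8 cells (16.3%), 33 in syngeneic CD4 cells (9.9%) and 59 in syngeneic CD8 cells (13%). The medians were 0.80, 0.84, 0.95 and 1.06 for members and -0.04, -0.13, -0.04 and -0.10 for all genes. One member, Cox6b2, fell in allogeneic CD8 cells, where 14.2% of all genes did. Without CD4 syngeneic JL019-2, the library with high myeloid values, the count in syngeneic CD4 cells was 1, with a median of 0.67. The 2 comparisons of each cell type share their day 0 libraries. Taking out the length curve left 35, 31, 24 and 33 higher calls (14.2%, 15.5%, 9.86% and 11% of all genes). With the trend as a term of the fit the higher calls were 67, 59, 67 and 16 (19.6%, 21.5%, 13.6% and 12.6% of all genes), more than without it in all but syngeneic CD8 cells.

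Other settings moved these counts too, in both directions. With curves on span and mean level removed, the higher calls were 7, 7, 12 and 1 (12%, 11.8%, 8.92% and 5.9% of all genes), with medians of 0.32, 0.03, 0.58 and 0.11. A block on library labels left 3, 13, 2 and 17 (7.69%, 9.12%, 5.73% and 7.13%). Fitted on the groups compared alone, they were 69, 54, 0 and 34 (22.6%, 16.9%, 1.36% and 7.5%). Each prefix holds a single day 0 library per cell type, so calls within a prefix would rest on that library, and no count is given. Cox5a and Cox5b in both allogeneic groups and Atp5k in allogeneic CD8 cells are among the calls that held after span and mean level were taken out.

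Atp5b, without a call under Treg treatment, rose in all 4 groups. It read 27435 and 26704 (JL019 and JL027) in CD4 cells at day 0 and 47052, 40062, 48732 and 50597 in allogeneic CD4 cells. The groups lay well apart. The change was 0.78 (SE 0.17, limma adjusted p = 0.00114), and it was 0.91 in allogeneic CD8, 0.86 in syngeneic CD4 and 1.11 in syngeneic CD8 cells, all called. In syngeneic CD4 cells it was the one call that held without JL019-2 (0.83, limma adjusted p = 0.00574). With span and mean level taken out, Atp5b was called in none of the 4 groups, and its values of -0.02 in allogeneic and -0.14 in syngeneic CD8 cells turned below 0. Atp5a1 rose by 0.68 in allogeneic CD4, 0.92 in allogeneic CD8 and 0.91 in syngeneic CD8 cells. Ndufv1 rose by 0.61 in allogeneic CD4, 0.86 in allogeneic CD8 and 0.93 in syngeneic CD8 cells. In complex III, Uqcrc1 rose by 0.72, 0.77 and 1.01 in allogeneic CD4, allogeneic CD8 and syngeneic CD8 cells. With span and mean level taken out these 3 genes had no call in those groups, and Atp5a1 and Ndufv1 in syngeneic CD8 cells (-0.20 and -0.15) and Uqcrc1 in allogeneic CD8 cells (-0.02) turned below 0.

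Sdhb, the iron-sulfur subunit of complex II, rose in all 4 groups (1.20 in allogeneic CD4, 1.45 in allogeneic CD8, 0.96 in syngeneic CD4 and 1.30 in syngeneic CD8 cells), while Sdha in the same complex had negative, uncalled changes of -0.47, -0.18, -0.44 and -0.14. In complex IV, Cox5a, a subunit next to the heme core, read 2750 and 2605 in CD4 cells at day 0 and 7707, 6749, 8989 and 7848 in allogeneic CD4 cells. No library of either group came near the other group. Its change of 1.54 (SE 0.36, limma adjusted p = 0.00186) was matched by rises of 1.70, 1.39 and 1.63 in allogeneic CD8, syngeneic CD4 and syngeneic CD8 cells. Cox5b rose by 1.37, 1.41, 1.39 and 1.38. Cycs rose in allogeneic CD4 (1.03), syngeneic CD4 (1.31) and syngeneic CD8 cells (1.12), with 0.61 and no call in allogeneic CD8 cells (limma adjusted p = 0.162). Its value in syngeneic CD8 cells was -0.01 after span and mean level were taken out. Of the 8 assembly factors 1, 1, 2 and 4 were called, among them Ndufaf7 in all 4 (0.85, 0.79, 0.77 and 0.74). Atp5k rose by 1.33 in allogeneic CD8 cells. In syngeneic CD4 cells the calls named here were lost without JL019-2: Sdhb was then 0.77, Cox5a 1.07, Cox5b 1.04, Cycs 1.00 and Ndufaf7 0.63 (limma adjusted p from 0.0899 to 0.215).

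Only 2 day 0 libraries exist per cell type. Without CD4 day 0 JL019 or JL027 the counts of higher calls were 9 or 3 in allogeneic and 1 or 2 in syngeneic CD4 cells. Without CD8 day 0 JL019 they were 7 in allogeneic and 2 in syngeneic CD8 cells, while without JL027 they were 34 and 50. Without CD8 syngeneic JL027, 14 members were called in syngeneic CD8 cells. Myeloid marker sums were 6199 to 7311 in CD4 and 9513 to 11832 in CD8 cells at day 0 and 85319 to 3641700 and 42752 to 68409 in the syngeneic groups. In allogeneic libraries they were 7984 to 14593 in CD4 cells, above day 0, and 8569 to 13061 in CD8 cells, overlapping it. B-cell marker sums ran the other way in CD8 cells, from 55928 to 65465 at day 0 to 9413 to 11596 in allogeneic and 22513 to 28111 in syngeneic libraries. In CD4 cells they were 37330 to 42186 at day 0, 10156 to 14017 in allogeneic and 18493 to 40178 in syngeneic libraries. Erythroid sums in CD8 cells were 30217 to 34236 at day 0 against 564 to 14788 in allogeneic and 3223 to 10892 in syngeneic libraries. In CD4 cells they were 511 and 1195 at day 0, 428 to 10792 in allogeneic and 4577 to 464853 in syngeneic libraries, the last without overlap. The part of these markers in the members' rises was not tested.

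The comparison of allogeneic with syngeneic recipients separates the response to foreign tissue from expansion in a matched host. Few members differed in the fit without a length term: 0 rose and 2 fell in CD4 cells (6.69% and 7.91% of all genes), and 0 rose and 2 fell in CD8 cells (10.4% and 10.7%). The member medians were -0.12 and -0.23. With each library's length trend as a term, 4 rose and 5 fell in CD4 cells (10.3% and 10.6% of all genes). In CD8 cells 33 then rose and 1 fell (14.2% and 12.5%), and the median turned positive, at 0.26. After the length curve was removed, 2 rose (10.5% of all genes) and 2 fell in CD8 cells. Without these corrections both CD8 calls were assembly factors. Ndufaf4 read 578, 596, 918 and 649 in allogeneic and 1662, 1257 and 2516 (JL019-1, JL019-2 and JL027) in syngeneic CD8 cells. Every syngeneic library was higher than every allogeneic one. The change was -1.37 (SE 0.28, limma adjusted p = 0.000751), and -1.20 (limma adjusted p = 0.000776) after the length curve was removed. Ndufaf6 read 450, 335, 513 and 472 against 787, 676 and 1252, again without overlap (-1.0, limma adjusted p = 0.0140). Marker sums separated these groups too: myeloid markers were 8569 to 13061 in allogeneic and 42752 to 68409 in syngeneic CD8 libraries, and B-cell markers 9413 to 11596 and 22513 to 28111. Of the 10 myeloid markers 2 were higher and 5 lower, and of the 7 B-cell markers 2 were lower; their part was not tested. In CD4 cells both calls were isoform genes of complex IV, Cox6a2 (-2.87) and Cox6b2 (-2.08). Both rest on the library with high myeloid values, CD4 syngeneic JL019-2, without which they were -0.90 (limma adjusted p = 0.560) and -0.81 (adjusted p = 0.324). Myeloid sums were 7984 to 14593 in allogeneic and 85319 to 3641700 in syngeneic CD4 libraries, with 9 of the 10 markers called lower, and B-cell sums 10156 to 14017 and 18493 to 40178. All 3 syngeneic CD4 libraries were thus above the allogeneic ones for both sums. Single B-cell markers did not all follow their sum. Pax5 ran the other way, at 5.05 to 27.5 in allogeneic and 0 to 1.27 in syngeneic CD4 libraries, and Cd79a overlapped. The part of these markers was not tested.

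Treg-treated recipients were also set against syngeneic ones. In CD4 cells 13 members rose (8.23% of all genes) and 1 fell (8.43%), so that 15.2% of members and 16.7% of all genes were called, although the member median was 0.72 and that of all genes -0.05. Called members included Ndufaf5 (1.06), Cox5a (1.09), Sdhb (0.84), Uqcrq (0.93) and Atp5c1, the gamma subunit of complex V (0.79). Without CD4 syngeneic JL019-2, whose member median deviation was 0.51 against -0.30 in both other syngeneic CD4 libraries, 65 members were called; without CD4 Treg-treated JL019-1 the number was 2 and without JL027-1 it was 68. It was 56 with libraries centred on their medians, 6 with span and mean level taken out and 0 when only the groups compared were fitted. The share of all genes called in these fits is not given here, so the counts do not set members apart from other genes. B-cell sums were 14775 to 17949 in treated and 18493 to 40178 in syngeneic CD4 libraries. T-cell sums (9 genes) were 127588 to 206825 and 47743 to 119294, and neither sum overlapped. Single markers did not all follow them. Pax5 was higher in treated libraries (4.67 to 9.41 against 0 to 1.27), and Cd79a and Cd3e overlapped. Cd4 read 9108, 8722, 17587 and 9370 in treated and 16526, 1659 and 14576 in syngeneic libraries. The part of these markers was not tested. In CD8 cells 1 member rose (9.56% of all genes) and 1 fell (8.63%), with a median of 0.15. They were Cox7a1 and Cox6a2. Myeloid marker sums were 13599 to 34235 in Treg-treated and 42752 to 68409 in syngeneic CD8 libraries and B-cell sums 11202 to 14683 and 22513 to 28111, neither overlapping; their part was not tested. With the length trend as a term, 0 members rose and 3 fell in CD4 cells (7.53% of all genes fell), and 36 rose and 3 fell in CD8 cells (15.4% and 13.5%).

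Regulatory T cells were then set against the conventional CD4 cells of treated recipients. In Treg after transplantation, 82 of 92 members were lower than in Treg-treated CD4 cells and 0 higher (16.1% and 13.9% of all genes), with a median of -1.08 beside 0.14 for all genes. The groups did not overlap for 81 members, against 19.4% of all genes in that direction. Calls covered 17 of 17 complex V, 36 of 39 complex I, 8 of 9 complex III, 10 of 14 complex IV and 3 of 4 complex II genes, 7 of 8 assembly factors and Cycs. This comparison shares its CD4 libraries with that of treated and untreated recipients.

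Uqcrq, a small subunit near the quinol site of complex III, read 3526, 3522 and 3590 in Treg (JL019-1, JL019-2 and JL027) and 15696, 17965, 9079 and 15741 in CD4 cells. Even CD4 Treg-treated JL027-1 lay far above the Treg libraries. The change was -2.0 (SE 0.29, limma adjusted p = 2.17e-05). The assembly factor Ndufaf6 read 220, 148 and 190 against 813, 1120, 437 and 758, likewise without overlap (-2.01, limma adjusted p = 1.81e-05). Cyc1 read 2897, 2612 and 2923 against 8784, 10360, 4301 and 7013 (-1.37, SE 0.26, limma adjusted p = 0.000434). Atp5g1, a gene for the rotating c-ring of complex V, was lower by -1.52, Uqcr10 by -1.60 and Ndufs8, an iron-sulfur subunit of complex I, by -1.72. Uqcrc1 (-1.16), Ndufv1 (-0.63), Atp5b (-0.59) and Atp5a1 (-0.51) were called, the last 3 of them not after the length curve was removed. Sdha (0.25) and Ndufs1 (0.42) were the members with positive values, and neither was called. With recipients as a block, the Treg library JL027 has no partner, since its label carries no number. The comparison then rests on recipients JL019-1 and JL019-2. In that fit 80 members were lower and 1 higher. Ndufs1 was then called (0.73, limma adjusted p = 0.0310), and Atp5a1 (-0.39, adjusted p = 0.113) and Ndufaf1 (-0.71, adjusted p = 0.0530) were not.

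The 3 Treg libraries had length trends of 0.04 to 0.06, above those of the CD4 libraries. With the length curve removed 65 members were called lower (15.2% of all genes), with a median of -0.82, and Uqcrq, Ndufaf6, Uqcrc1, Cyc1 and Atp5g1 kept changes of -1.58, -2.12, -1.05, -0.97 and -1.11. With the trend as a term of the fit 6 members were called (11.2% of all genes), 2 higher and 4 lower, with a median of -0.01. With span and mean level taken out 22 were lower (10.1% of all genes) and 2 higher, and the median was -0.45. Leaving out single libraries gave 55 to 87 calls, and JL019 alone gave 44. JL027 holds a single Treg library, so no count is given for it. Myeloid marker sums of 9003 to 14821 in Treg lay below those of the CD4 libraries, with 1 of the 10 markers higher and 5 lower. B-cell marker sums lay above them, at 27536 to 39607 against 14775 to 17949, with 2 of the 7 higher and 1 lower. The part of these markers was not tested.

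Treg were also followed over time. From day 0 to after transplantation 1 member, Cox8a, rose (8.43% of all genes did): 4409 and 4305 at day 0 against 9040, 10122 and 9203, without overlap (1.12, SE 0.37, limma adjusted p = 0.0472). The call was lost when any of the 5 libraries was left out. Without overlap 69 of the 92 members were higher after transplantation, where 26.9% of all genes separated that way. Fitted on these groups alone, 40 members rose (15.2% of all genes). Erythroid marker sums also rose without overlap, from 118 and 456 to between 1682 and 50373, with 4 of the 7 markers called higher; their part was not tested. With the length trend as a term 16 members rose and 5 fell (14.1% and 8.74% of all genes). The median of members was 0.47, beside -0.07 for all genes, and -0.06 with span and mean level taken out. Before transplantation, Treg and CD4 cells differed in 0 members (limma; 3.89% of all genes called), with 2 at an unadjusted p under 0.05 and a median of 0.07; with the length trend as a term 34 were higher in Treg (8.3% of all genes). Day 0 marker sums in Treg and CD4 libraries were 12675 to 13721 and 6199 to 7311 for myeloid genes. They were 30068 to 32825 and 37330 to 42186 for B-cell, 118 to 456 and 511 to 1195 for erythroid, and 100210 to 106880 and 114583 to 127322 for T-cell genes. None of these overlapped, and their part was not tested. Between allogeneic CD8 and CD4 cells 1 member, Cox6a2, was higher in CD8 cells (3.05% of all genes), the median was 0.38, and 91 of 92 members were positive. By recipient number, the member median deviation was 0.13, 0.04, 0.53 and 0.12 in CD8 and -0.15, -0.43, -0.03 and -0.18 in CD4 cells, higher in CD8 cells in each of the 4 pairs. With recipients as a block Cox6a2 was again the one call (2.94, limma adjusted p = 0.0410). The call was lost with a pseudocount of 0.1 (adjusted p = 0.0796), with a block on library labels (0.0712), within each prefix, and without any 1 of 6 of the 8 libraries (2.55 to 3.16, adjusted p from 0.0559 to 0.159); it held without CD4 allogeneic JL027-1 or CD8 allogeneic JL019-1.

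Complex IV has subunits with alternative forms, several of them known from heart and skeletal muscle or testis, and these went their own way. Cox6a2, the muscle form of Cox6a1, was low in most libraries. It read 71.6, 74.6, 246 and 150 normalised counts in allogeneic CD8 cells and 23.6, 5.86, 26.7 and 11.6 in allogeneic CD4 cells, without overlap (2.94, SE 0.87, limma adjusted p = 0.0414). In Treg it was 0 in both day 0 libraries and at most 1.63 after transplantation. Treg-treated CD8 cells had 11.1, 11.8, 16.0 and 4.35, all below the untreated ones, the one member that separated lower in that comparison, where 2.31% of all genes did. The change there was -3.46 (SE 0.87) and missed the threshold (limma adjusted p = 0.116). Against syngeneic CD8 cells (41.2, 60.1 and 155) the treated ones were also lower (-2.76, limma adjusted p = 0.0411), again with no overlap. Cox6a2 and Cox7a1 were the 2 calls of that comparison. Leaving out CD8 Treg-treated JL019-1, JL019-2 or JL027-2 each lost 1 of these 2 calls. The sum of 3 muscle markers lay between 23.2 and 113 in all libraries. In allogeneic CD8 cells it was 53.7 to 82.2, above the 27.7 to 49.3 of allogeneic CD4, 23.2 to 43.7 of syngeneic CD8 and 42.7 to 45.2 of day 0 CD8 libraries. Of the 3 markers 0, 1 and 2 were called higher in these comparisons. In Treg-treated CD8 libraries the sum was 36.0 to 113. The part of these markers in the isoform values was not tested.

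Cox7a1, the muscle form of Cox7a2, ran the other way. It read 4.69 and 8.98 in CD8 cells at day 0, 42.3, 35.8, 43.3 and 37.8 in allogeneic, 56.8, 125, 37.6 and 57.6 in Treg-treated and 17.9, 7.76 and 23.4 in syngeneic CD8 cells. Both allogeneic groups lay above the other 2 groups. It rose from day 0 in allogeneic CD8 cells (2.43, adjusted p = 0.00278) and CD4 cells (1.82, adjusted p = 0.0266), and stood higher in Treg-treated than in syngeneic CD8 cells (2.00, limma adjusted p = 0.00723). The last value was 1.57 with an adjusted p of 0.0706 without CD8 syngeneic JL019-2. Cox6b2, the testis form of a complex IV subunit, read 169 and 199 in CD8 cells at day 0 and 29.6, 27.6, 38.2 and 23.2 in allogeneic CD8 cells, a fall of -2.61 (limma adjusted p = 0.00475) with the groups far apart. Cox7a2l, which helps to join complexes III and IV into supercomplexes, stayed between 2428 and 5991 in all libraries and was called in none of the comparisons described here.

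**Figure D5:**
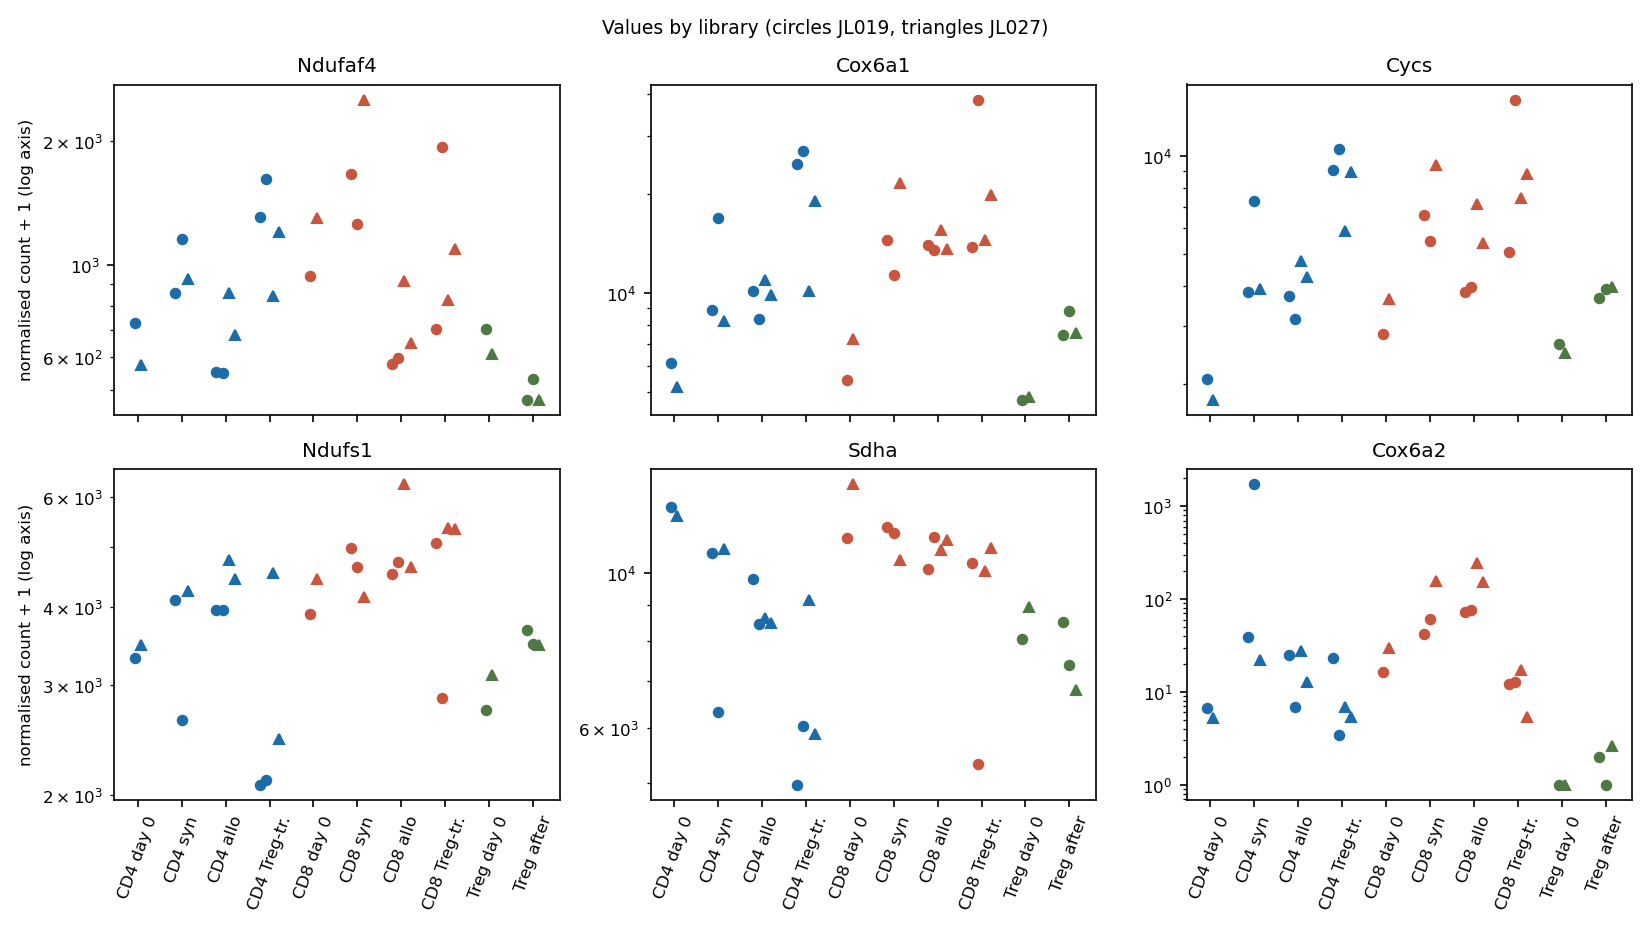
Normalised counts of 6 members in each library, by group, plus 1, on a log axis, with circles for JL019 and triangles for JL027 and a colour for each cell type. Cox6a1, Cycs and Ndufaf4 are high in Treg-treated CD4 cells except JL027-1, Ndufs1 and Sdha are low in the same libraries, and Cox6a2 is highest in CD4 syngeneic JL019-2, followed by the allogeneic and syngeneic CD8 libraries.

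The 13 genes of the mitochondrial genome encode the core of complexes I, III, IV and V. In CD4 cells 10 of 13 rose with Treg treatment (10.7% of all genes) and 0 fell, with a median of 0.85. The gene mt-Nd2, a membrane subunit of complex I, read 7475, 6119, 8435 and 5655 in untreated and 18357, 16859, 9835 and 19121 in treated CD4 cells, with no overlap and JL027-1 again the lowest treated library (1.18, SE 0.30, limma adjusted p = 0.0134). Similar rises were seen for mt-Nd3 (1.21), mt-Nd4l (1.09), mt-Co3 (1.05), mt-Co2 (1.04) and mt-Cytb, the core of complex III (0.93). The others without a call, mt-Nd1 (0.69), mt-Atp6 (0.79) and mt-Co1 (0.59), had positive values too. In allogeneic against syngeneic CD4 cells 5 of 13 fell (7.91% of all genes), with a median of -0.70. None of the 5 was called without CD4 syngeneic JL019-2, where their values were -0.93 to -0.60 (limma adjusted p from 0.0777 to 0.187). In Treg against Treg-treated CD4 cells 9 of 13 were lower (16.1% of all genes), with a median of -0.87. With recipients as a block, resting on JL019-1 and JL019-2, mt-Nd3, mt-Nd4 and mt-Nd4l were called as well. With the length trend as a term, mt-Co3 (0.091), mt-Co2 (0.19), mt-Atp8 (0.019) and mt-Atp6 (0.064) turned above 0, and the other called genes stayed below it. In treated against untreated CD4 cells mt-Atp8 (-0.074) alone of the called genes changed sign with that term.

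Against day 0 the values of the 2 genomes lay apart in 4 of 5 groups. The median of the mitochondrially encoded genes was -0.03 in allogeneic CD4, -0.37 in allogeneic CD8, -0.05 in syngeneic CD8 and -0.59 in Treg, where the medians of the nuclear members were 0.80, 0.84, 1.06 and 0.47. In syngeneic CD4 cells both were positive, at 0.65 and 0.95. One, mt-Nd4, fell in allogeneic CD8 cells (-0.81), and one, mt-Nd3, rose in syngeneic CD4 cells (1.39), a call lost without JL019-2 (0.96, limma adjusted p = 0.273). The summed counts of the 92 nuclear members divided by those of the 13 mitochondrially encoded genes gave 0.786 and 0.783 in CD4, 0.580 and 0.643 in CD8 and 0.555 and 0.557 in Treg libraries at day 0. In allogeneic CD4 cells the ratio was 1.24, 1.29, 1.27 and 1.77, in allogeneic CD8 cells 1.55, 1.47, 1.28 and 1.37, and in Treg after transplantation 1.29, 1.07 and 1.02. All of these lay above every day 0 library of the same cell type. Treg-treated CD4 cells had 1.24, 1.59, 1.24 and 1.06, overlapping the untreated ones. Syngeneic CD4 cells had 1.31, 0.949 and 0.685, the last below its day 0 libraries, and syngeneic CD8 cells 1.37, 1.13 and 1.5.

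Other mitochondrial and metabolic lists, fixed by symbol, put these changes in context. The mitochondrial ribosome, 78 mostly short nuclear genes, moved with the members under Treg treatment: 55 rose in CD4 cells and 0 fell (median 0.86; 10.7% and 11.5% of all genes), led by Mrps6 (1.35), Mrpl39 (1.02), Mrps25 (1.28) and Mrps15 (1.14). In Treg against Treg-treated CD4 cells 71 were lower and 0 higher (16.1% and 13.9% of all genes). Against day 0 the list gave 13 higher and 1 lower in allogeneic CD4 cells (14.4% and 9.61% of all genes) and 15 higher and 1 lower in allogeneic CD8 cells (16.3% and 14.2%), shares of higher calls near those of all genes. In syngeneic CD8 cells 33 were higher (13% of all genes). In allogeneic against syngeneic CD8 cells 14 fell and 0 rose (10.7% and 10.4% of all genes). Assembly factors outside the member list, 41 genes, gave 18 higher and 4 lower in treated against untreated CD4 cells, including Cox17, a copper chaperone of complex IV (1.25), and Timmdc1, an assembly factor of complex I (0.99). In Treg against treated CD4 cells 23 were lower and 2 higher, among them Lyrm7, needed for complex III maturation (-3.55), and Cox10, which makes the heme of complex IV (-1.80).

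Glycolysis took another course. In CD4 cells of treated against untreated recipients 7 of 19 genes fell and 0 rose (11.5% and 10.7% of all genes, as for the 2 lists after it), among them the glucose transporters Slc2a3 (-1.78) and Slc2a1 (-1.05), the lactate exporter Slc16a3 (-1.55) and Pdk1, which restrains pyruvate entry into mitochondria (-1.57). From day 0, 14 of 19 rose and 1 fell in allogeneic CD4 cells (14.4% and 9.61% of all genes) and 14 rose and 2 fell in allogeneic CD8 cells (16.3% and 14.2%). In Treg after transplantation 12 rose and 0 fell, where 8.43% of all genes rose and 4.89% fell. The tricarboxylic acid cycle list, 21 genes, gave 0 higher and 6 lower in treated against untreated CD4 cells, including Ogdh (-1.20), Pdha1 (-0.70) and citrate synthase, Cs (-0.66). Of 20 regulators of mitochondrial gene expression, 3 rose and 4 fell there: Tfb1m, a methyltransferase of mitochondrial ribosomal RNA, rose (0.91), and Polg, the mitochondrial DNA polymerase (-1.70), the coactivator Ppargc1b (-1.04) and Nrf1 (-0.63) fell, so that this list's counts lay near the shares of all genes. These lists hold long and short genes, and their calls stand beside the same length trends as those of the members.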

How the data were processed

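RNA from 31 sorted T-cell samples (TRIzol with column clean-up, full-length cDNA by template switching, transposase libraries, per the labels' protocols) was measured by sequencing. The deposited table gives, for 16741 genes, normalised count signal per library, scaled by the authors with DESeq2 and so not whole reads. FastQC 0.11.7, kallisto, DESeq2 and builds GRCm38 and mm10 are named in the submitters' processing notes; any filter is not given in the sources used here. The full-length method and scaling can leave values dependent on transcript length, so members were also tested with length trends removed. The T-cell receptor tables were not used here except for the experiment names.

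Values were taken as log2(value + 1) and fitted with limma 3.58.1 (R 4.3.3), one mean per group over all 31 libraries, trended and robust moderated variances, 15 contrasts, and Benjamini-Hochberg adjusted p over all 16741 genes at 0.05. All genes had a mean of at least 1, so none was filtered. The fit was tested on simulated data. Group comparisons share the variance estimate of all groups. Genomic spans came from RefSeq (GRCm38.p6), matched for 94.8% of genes and all 92 members; the smooth curve was a lowess of fraction 0.3 on log2 span, not applied to mitochondrially encoded genes. Summaries were made in Python 3.11.15 with pandas 2.3.3, permutation tests with numpy 2.4.6, rank statistics with scipy 1.17.1, and plots with matplotlib 3.10.9. Depth is unknown, so no counting interval is given.

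Members and lists were chosen with earlier results of these data known. Genes named were 24 members in a set list of core, catalytic and isoform genes; in each comparison up to 6 called members per direction with the lowest p and up to 3 called per complex; the mitochondrially encoded genes; and up to 4 called genes per pathway list. One gene that the rule names is not reported here. Alternatives changed the pseudocount, a filter at a mean of 10, centring, the libraries fitted, blocks, length trends and single libraries. Ndufb4 with Ndufb4c and Ndufa11 with Ndufa11b are near-copies whose reads may be split uncertainly. Libraries of one recipient, taken from the prefix, treatment and number in the titles, were checked for pairing. Their deviations had a median correlation of 0.159 over 15 pairs, with 9 above 0.1. All 4 pairs of allogeneic CD4 and CD8 libraries were above 0.1 (0.159 to 0.470), so that comparison is given also with recipients as a block; the fit itself has none.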

Additional observations from a re-analysis of the deposited data

Results flagged for a closer look

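For the 24 members in the set list and 3 library measures (the median deviations of members and of mitochondrially encoded genes, and the length trend), 108 sets of 4 libraries were searched for one library far from the other 3 (gap over range above 0.829), and 13 were found, all of them for members. Chance alone marks about 1 group in 20. The members share libraries and move largely together, so the sets are not independent and the number found cannot be weighed against that rate. In allogeneic CD8 cells JL027-1 stood high for Ndufs1 (6297 normalised counts), Ndufa4 (12873), Uqcrc2 (11423), Uqcrfs1 (8705) and Cox8a (15423), and low for Uqcrc1 (4024). JL019-1 stood apart from its group for Ndufv1 in allogeneic CD8 cells (5865) and for Sdha in allogeneic CD4 cells (9817). In Treg-treated CD4 cells JL027-1 was the one apart for Ndufs1 (4539) and Atp5b (47455). In Treg-treated CD8 cells JL019-2 was low for Ndufs1 (2863) and Sdha (5318), and JL027-2 stood apart for Uqcrc1 (7074). Of these libraries, CD4 Treg-treated JL027-1 and CD8 Treg-treated JL019-2 were also the 2 farthest from the median length trend once group means were taken out.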

How the results depend on the processing

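Counts are members called in either direction. Shares of all genes are not given in this section, so the counts show only how calls depend on the settings. The length trend as a term of the fit, trends on length and abundance removed together, and each prefix alone were chosen after seeing the data, and the cause of each shift was not tested. With the length trend as a term the counts were 0 for Treg-treated against allogeneic CD4 and 1 for CD8 cells; 9 and 34 for allogeneic against syngeneic CD4 and CD8 cells; 3 and 39 for Treg-treated against syngeneic; 67 and 63 for allogeneic, and 67 and 18 for syngeneic, against day 0; 21 for Treg against day 0, 6 for Treg against Treg-treated CD4, 35 for Treg against CD4 at day 0 and 4 for CD8 against CD4 allogeneic cells. With length and abundance trends removed they were 33 for Treg-treated against allogeneic CD4, 4 for allogeneic against syngeneic CD8, 6 for Treg-treated against syngeneic CD4, 8 and 13 for allogeneic and 12 and 3 for syngeneic CD4 and CD8 against day 0, 2 for Treg over time, 24 for Treg against Treg-treated CD4 and 1 for Treg against CD4 at day 0. JL019 alone gave 5 for allogeneic CD8 and 2 for syngeneic CD8 against day 0, 44 for Treg against Treg-treated CD4 and 0 for the other comparisons that differed. JL027 alone gave 0 for the comparisons left there.

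With a pseudocount of 0.1 the count was 1 for allogeneic against syngeneic CD4, for Treg-treated against syngeneic CD8 and for Treg against CD4 at day 0, and 0 for CD8 against CD4 allogeneic cells. The replicate block on library labels gave 51 for Treg-treated against allogeneic CD4, 3 and 13 for allogeneic and 2 and 17 for syngeneic CD4 and CD8 against day 0, 1 each for allogeneic and Treg-treated against syngeneic CD8, and 0 for allogeneic against syngeneic CD4, Treg over time and CD8 against CD4; labels did not meet the rule for pairing. A replicate block on recipients gave 81 (80 lower, 1 higher) for Treg against Treg-treated CD4, 1 for CD8 against CD4 allogeneic cells and 0 for the difference of the Treg effects, and changed the calls of 3 members (Atp5a1, Ndufaf1 and Ndufs1) and 3 mitochondrially encoded genes, all in Treg against Treg-treated CD4. That Treg comparison rests on recipients JL019-1 and JL019-2 once blocked, as the Treg library JL027 has no number. Fitting only the groups compared gave 70 for allogeneic CD4, 0 for syngeneic CD4 and 35 for syngeneic CD8 against day 0, 40 for Treg over time, 3 for Treg against CD4 at day 0, 7 for CD8 against CD4 and 0 for allogeneic and for Treg-treated against syngeneic CD4. A linear or smooth length trend removed gave 4 for allogeneic against syngeneic CD8, 2 for Treg over time and 2 for CD8 against CD4, and the smooth one 4 for Treg-treated against syngeneic CD8, 34 for syngeneic CD8 against day 0 and 1 for Treg against CD4 at day 0. Centring on medians gave 56 for Treg-treated against syngeneic CD4, 12 and 3 for allogeneic and syngeneic CD4 against day 0 and 0 for Treg over time; the filter at a mean of 10 gave 2 for Treg over time, and a block on the prefix 2 for CD8 against CD4.

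Leaving out single libraries gave 2 to 80 for Treg-treated against allogeneic CD4 and 0 to 0 for CD8, 0 to 2 and 1 to 7 for allogeneic against syngeneic, 2 to 68 and 1 to 2 for Treg-treated against syngeneic, 3 to 40 and 8 to 40 for allogeneic and 1 to 43 and 2 to 77 for syngeneic against day 0, 0 to 0 for Treg over time, Treg against CD4 at day 0 and the difference of the Treg effects, 55 to 87 for Treg against Treg-treated CD4 and 0 to 1 for CD8 against CD4.

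Of 3365 values of 180 named results, 2214 kept direction and call, 1120 lost the call and 31 reversed. With the length trend as a term, Treg-treated against allogeneic CD4 gave Cox4i1 -0.21, Cox5a -0.070, Cox5b -0.19, Cox6a1 -0.084, Cox8a -0.00593, Uqcr10 -0.080 and mt-Atp8 -0.074, and Treg against Treg-treated CD4 gave Cox4i1 0.13, Cox5b 0.23, Cox7a2 0.10, Cox8a 0.21, Ndufa4 0.086, Sdhb 0.12, Uqcrfs1 0.011, mt-Co3 0.091, mt-Co2 0.19, mt-Atp8 0.019 and mt-Atp6 0.064. With length and abundance removed, allogeneic CD8 against day 0 gave Atp5b -0.022, Uqcrc1 -0.022, Uqcrc2 -0.14 and Uqcrfs1 -0.030, syngeneic CD8 against day 0 gave Atp5a1 -0.20, Atp5b -0.14, Cox4i1 -0.14, Cox8a -0.024, Cycs -0.015 and Ndufv1 -0.15, and Treg against Treg-treated CD4 gave Atp5a1 0.17, Atp5b 0.25 and Ndufv1 0.048.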

Other observations

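Genes that feed electrons in beside complexes I and II, with ubiquinone synthesis (18 genes), gave calls in both directions. In allogeneic CD4 cells against day 0, 6 rose and 3 fell (14.4% and 9.61% of all genes): Etfb, which carries electrons from fatty acid oxidation, rose by 1.80 on the log2 scale, Coq3, a ubiquinone synthesis enzyme, by 1.02, and Sqor, which oxidises sulfide, fell by 2.93. In allogeneic against syngeneic CD8 cells 3 rose and 5 fell (10.4% and 10.7% of all genes), with Dhodh, the pyrimidine synthesis enzyme that donates to ubiquinone, at -1.26 and Gpd2, of the glycerol phosphate shuttle, at 0.92. In Treg against Treg-treated CD4 cells 1 was higher and 11 lower (13.9% and 16.1% of all genes), including Coq7 (-1.82) and Pdss1 (-1.05). In treated against untreated CD4 cells 3 rose and 1 fell, beside 10.7% and 11.5% of all genes.

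Of 14 carrier, channel and antioxidant genes, 4 rose in allogeneic CD4 cells from day 0 (14.4% of all genes), among them Slc25a4 (1.79) and Slc25a5 (0.96), which exchange ADP for ATP. In Treg 6 were lower than in Treg-treated CD4 cells (16.1% of all genes), with Slc25a5 again at -0.96. Myc, an inducer of mitochondrial genes, was lower in allogeneic than syngeneic CD8 cells (-2.10), and Idh2 too (-2.29). Summed T-cell markers (9 genes) ran from 47743 in CD4 syngeneic JL019-2 to 371785 in CD8 syngeneic JL027, and their part in the members' values was not tested.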
